A study of Homo sapiens with 12 samples.

Results

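The 10 genes FKBP5, TSC22D3, SGK1, GLUL, CEBPD, ANGPTL4, TMPRSS2, PIK3R1, CRISPLD2 and ZBTB16 are known targets of glucocorticoids, androgens or both, and were taken by symbol from the 23228 genes counted. Of the 10, 8 had enough reads to be tested, and ANGPTL4 and ZBTB16 did not. The question was which of them move when estrogen receptor beta (ERβ1, gene ESR2) and its ligand are both present. RNA was sequenced from MDA-MB-468, a triple-negative breast cancer cell line made to express ERβ1 under doxycycline control, in 4 groups of 3 libraries. For 3 days beforehand all cells were kept without phenol red in 10% serum stripped on charcoal, which depletes steroid hormones, and the experiment itself used 5% stripped serum. Uninduced vehicle cells received no doxycycline and 0.1% DMSO for 4 hours, and uninduced E2 cells received no doxycycline and 10 nM 17β-estradiol (E2) for 4 hours. Induced vehicle and induced E2 cells had 50 ng/mL doxycycline for 48 hours before the same 2 treatments. The labels name no added glucocorticoid or androgen in any group. Whether the line is 1 clone or a pool is not stated by the labels. Doxycycline-treated cells without the ERβ1 construct are not among the groups, so an effect of doxycycline itself and one of the induced receptor cannot be told apart.

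Glucocorticoid, mineralocorticoid and progesterone receptors are hormone-activated transcription factors that recognise the same DNA element, a pair of inverted AGAACA units. Estrogen receptors belong to the same family and bind a different element, a pair of inverted AGGTCA units. FKBP5 is a co-chaperone of the receptor complex and dampens glucocorticoid signalling, and its induction serves as a standard readout of these hormones. In breast and prostate cells the same genes serve as markers of glucocorticoid or androgen action.

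Library totals ran from 7.89 to 33.3 M expected counts, and the 10 most abundant genes took 4.38% to 4.70% of each. Levels are given as CPM, counts scaled to a common library size by TMM. A floor of 3 counts corresponds to 0.0896 to 0.375 CPM, which covers counting error only. ESR2 was at 1.37, 1.06 and 1.47 CPM in uninduced vehicle libraries and at 134, 113 and 115 CPM in induced vehicle libraries. It was at 2.26, 1.28 and 1.27 CPM in uninduced E2 and at 116, 98.6 and 98.0 CPM in induced E2 libraries, so every library matched its doxycycline label, which is all that ESR2 checks. Epithelial markers were present (EPCAM 331 to 349 CPM, KRT8 1850 to 3020 CPM), as were the basal markers EGFR (2170 to 2650 CPM) and KRT5 (573 to 910 CPM). Of the receptor genes that serve to define triple-negative cells, ESR1 was at 3.21 to 6.12 CPM and PGR at 0 to 0.155 CPM. ERBB2 RNA was clearly present, at 66.2 to 86.3 CPM. Of markers of other cell types, the myeloid gene CD14 (21.9 to 37.2 CPM) and the collagen gene COL1A1 (19.2 to 26.3 CPM) were detected. Replicate 1 of each group carries an earlier date in its file name than replicates 2 and 3. Within a group, replicate 1 differed from the others by a root mean square of 0.208 to 0.268 log2 units over genes, against 0.135 to 0.144 between replicates 2 and 3. In bulk RNA, fewer cells of a type and less RNA per cell cannot be told apart.

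The promoters of 4 genes that changed with E2 in induced cells are shown first, to set the letters near a start beside a rise (GLUL, CRISPLD2, FKBP5) and a fall (PIK3R1). RefSeq promoter windows of GRCh38.p14, from 250 bases before to 50 bases after an annotated start, were matched for 7 of the 10 genes, with 17 starts among them. Those of CEBPD, TMPRSS2 and ZBTB16 were not matched. Printed below, 5′ to 3′ on the gene's strand, are the first 280 bases of a window for each of the 4 genes. GLUL had the largest rise, and CRISPLD2 also rose. For FKBP5 and PIK3R1 the printed start was picked because it carries an AGAACA unit. Capitals mark AGAACA or TGTTCT, a single unit of the glucocorticoid element on either strand, and GGGCGG or CCGCCC, the SP1 site. The windows lie at chr1:182391761-182392040 (minus strand, GLUL), chr16:84819735-84820014 (plus strand, CRISPLD2), chr6:35728554-35728833 (minus strand, FKBP5) and chr5:68290414-68290693 (plus strand, PIK3R1).
GLUL start 1: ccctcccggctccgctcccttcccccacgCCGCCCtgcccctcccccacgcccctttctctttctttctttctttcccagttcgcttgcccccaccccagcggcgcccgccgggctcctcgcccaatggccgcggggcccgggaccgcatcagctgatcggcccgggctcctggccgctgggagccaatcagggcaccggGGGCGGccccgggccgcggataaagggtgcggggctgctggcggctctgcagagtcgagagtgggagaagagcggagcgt
CRISPLD2 start 1: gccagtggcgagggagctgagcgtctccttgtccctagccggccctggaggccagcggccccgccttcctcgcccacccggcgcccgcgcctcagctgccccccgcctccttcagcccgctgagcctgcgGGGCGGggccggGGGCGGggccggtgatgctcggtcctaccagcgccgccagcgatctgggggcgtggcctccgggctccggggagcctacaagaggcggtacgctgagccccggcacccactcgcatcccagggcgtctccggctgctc
FKBP5 start 1: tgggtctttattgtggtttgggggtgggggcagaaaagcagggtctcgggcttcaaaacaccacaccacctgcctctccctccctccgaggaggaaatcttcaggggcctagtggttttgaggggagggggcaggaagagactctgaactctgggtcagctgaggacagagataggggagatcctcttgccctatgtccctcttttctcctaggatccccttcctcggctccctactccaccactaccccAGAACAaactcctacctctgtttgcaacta
PIK3R1 start 3: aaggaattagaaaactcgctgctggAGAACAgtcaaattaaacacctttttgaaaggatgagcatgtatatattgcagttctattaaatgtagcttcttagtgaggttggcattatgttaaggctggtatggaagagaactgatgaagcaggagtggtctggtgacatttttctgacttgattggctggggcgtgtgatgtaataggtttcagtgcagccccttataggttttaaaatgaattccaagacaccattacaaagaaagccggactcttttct

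The AGAACA unit of FKBP5 begins at the annotated start itself (position 0), and that of PIK3R1 begins 225 bases before its start (position -225). Further units were found at SGK1 start 2, 5 bases after the start, and at PIK3R1 start 4, 41 bases after it. FKBP5 start 2 and PIK3R1 starts 1 and 2, not printed, held no such unit and had 6, 5 and 2 SP1 sites. An AGAACA unit, on either strand, was in 14.8% of the 35114 promoters of the table. No window of the 7 genes held the full element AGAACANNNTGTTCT (0.00285% of all promoters), the full estrogen element GGTCANNNTGACC (0.057%) or its unit AGGTCA (13.8%), read on both strands. The AP-1 site TGANTCA, a place where estrogen receptors can act through other factors, was likewise not found in them (7.71% of all promoters). GGGCGG, where they can act through SP1, was in at least 1 window of each of the 7 genes, whether they rose, fell, were not called or were not tested. It was in 45% of all promoters, a share per window that cannot be set against a count of genes with up to 4 windows each. All these motif results are matches of letters in short windows, and the known glucocorticoid sites of FKBP5 lie in its introns, outside the windows. Gene-level counts do not say which start was used.

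Before any comparison, the genes differed widely in abundance. Levels per transcript length were taken from the deposited fraction of transcripts, as TPM, transcripts scaled to a common total. In uninduced vehicle cells TSC22D3 was the most abundant of the 10 at 379 ± 17.4 TPM (SD, n = 3), above 98.3% of genes, and GLUL followed at 194 ± 17.98 TPM. TMPRSS2 (64.4 ± 1.52 TPM), FKBP5 (57.3 ± 2.25 TPM), PIK3R1 (40.5 ± 1.55 TPM) and CEBPD (35.3 ± 1.92 TPM) formed the middle, and CRISPLD2 (19.9 ± 0.336 TPM) and SGK1 (16.3 ± 0.583 TPM) were lower. No neighbours in this order overlapped between libraries. In induced E2 cells the order was another: GLUL, at 414 ± 27.6 TPM, stood above TSC22D3, at 336 ± 18.6 TPM. FKBP5 (79.8 ± 6.93 TPM) and TMPRSS2 (75.8 ± 2.03 TPM) overlapped there, and CRISPLD2 (22.1 ± 1.24 TPM) stood above CEBPD (18.5 ± 1.32 TPM).

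**Figure D1:**
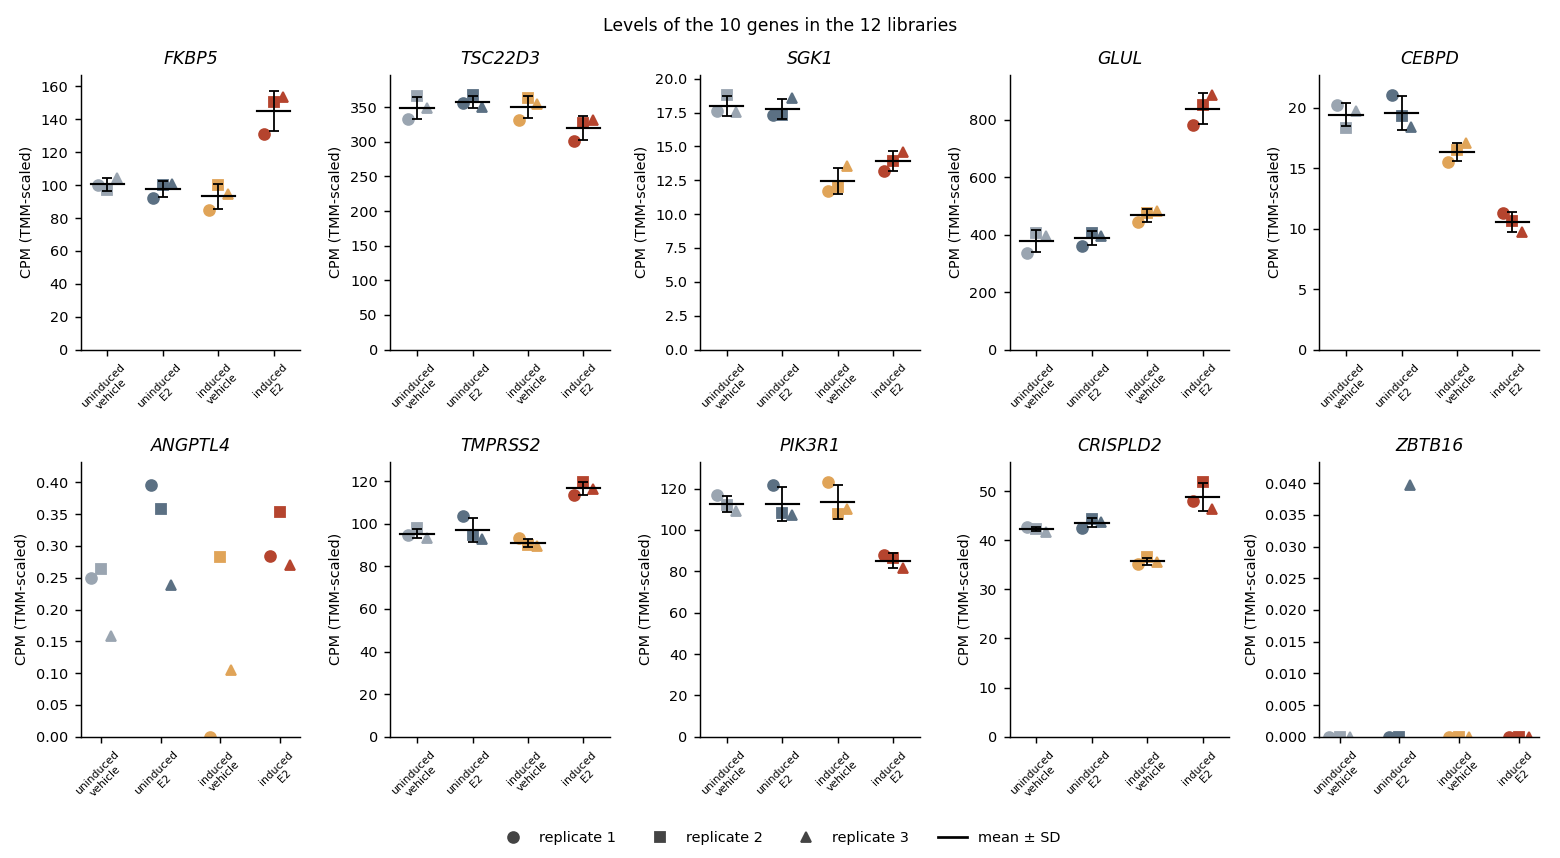
TMM-scaled CPM (vertical axes from 0, 1 scale per gene) of the 10 genes in the 4 groups. Each point is 1 library, shaped by replicate number, and lines and bars are the mean ± SD of 3 libraries, left out for ANGPTL4 and ZBTB16, which were at a few reads. GLUL, FKBP5, TMPRSS2 and CRISPLD2 stand highest and PIK3R1 and CEBPD lowest in induced E2 cells.

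Induced E2 cells were set against induced vehicle cells to see which genes E2 moves when the receptor is there. GLUL, FKBP5, CRISPLD2 and TMPRSS2 rose, by 1.28- to 1.79-fold, and CEBPD and PIK3R1 fell, by 1.56- and 1.33-fold. TSC22D3 and SGK1 were not called. Of 8 tested genes 6 were called at an edgeR adjusted p under 0.05, against 16.5% of all 14541 tested genes. Of these, 4 rose (background 9.85%) and 2 fell (background 6.61%). The median of the 8 log2 changes was 0.26, beside -0.005 for all tested genes. The libraries of the 2 groups did not overlap for 7 of the 8 genes, as for 30.5% of all tested genes. With the replicate number as a block 7 of the 8 were called, against a background of 23.8%.

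FKBP5, the co-chaperone, was at 85.0, 99.9 and 94.8 CPM in induced vehicle and at 131, 150 and 154 CPM in induced E2 libraries. The lowest of the E2 libraries stood above the highest of the 9 others. Its difference was 0.63 log2 (SE 0.07, edgeR adjusted p = 1.03e-05), a 1.55-fold rise, at 0.63, 0.59 and 0.70 log2 in the same-numbered pairs.

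TSC22D3, CEBPD and ZBTB16 encode regulators of transcription. TSC22D3 (also GILZ) restrains inflammatory signalling and is a fast glucocorticoid target. It was at 332, 363 and 355 CPM in induced vehicle and at 300.4, 327 and 332 CPM in induced E2 libraries. All 3 pairs were lower with E2, and the groups lay next to each other, with the highest E2 library at 331.68 CPM and the lowest vehicle library at 331.70 CPM. The difference was -0.13 log2 (95% interval -0.23 to -0.03) and was not called (edgeR adjusted p = 0.086). With the replicate number as a block, adjusted p was 0.00329. It was 0.0298 under upper quartile scaling, 0.0305 without induced vehicle replicate 1 and 0.0112 without all libraries numbered 1, each under the threshold in edgeR.

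CEBPD, a C/EBP family factor that responds to glucocorticoids and cytokines, was at 15.5, 16.5 and 17.0 CPM in induced vehicle and at 11.3, 10.7 and 9.71 CPM in induced E2 libraries. Every E2 library was below every other library of the study. It fell by 0.64 log2 (SE 0.08, edgeR adjusted p = 3.97e-05), with pair differences of -0.45, -0.62 and -0.81 log2. ZBTB16 (PLZF), a zinc finger repressor that glucocorticoids and androgens induce in many tissues, had a single read, in replicate 3 of uninduced E2, and 0 counts in the remaining 11 libraries. Its count of 0 in each induced E2 library allows a level of up to 0.118 to 0.171 CPM.

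SGK1 and PIK3R1 belong to kinase signalling. SGK1, a kinase that acts downstream of PI3K and regulates ion channels, was at 11.7, 12.01 and 13.5 CPM in induced vehicle and at 13.2, 14.0 and 14.6 CPM in induced E2 libraries. The groups overlapped, although each pair was higher with E2. Its difference of 0.17 log2 (95% interval 0.01 to 0.32) was not called (edgeR adjusted p = 0.159, and 0.0958 with the block). PIK3R1, the regulatory subunit p85α that restrains and stabilises the PI3K catalytic subunit, was at 123, 108 and 110 CPM in induced vehicle and at 87.97, 86.3 and 81.4 CPM in induced E2 libraries. All 3 E2 libraries were below the 9 others, and PIK3R1 fell by 0.41 log2 (SE 0.06, edgeR adjusted p = 2e-04).

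GLUL and ANGPTL4 act in metabolism. GLUL encodes glutamine synthetase, which makes glutamine from glutamate and ammonia. It was at 443, 476 and 484 CPM in induced vehicle and at 781, 851 and 886 CPM in induced E2 libraries. With 0.84 log2 (SE 0.07, edgeR adjusted p = 7.57e-07), a 1.79-fold rise, it had the largest increase of the 8, and the pairs spanned only 0.82 to 0.87 log2. ANGPTL4, a secreted inhibitor of lipoprotein lipase, had 0, 9 and 2 counts in induced vehicle and 5, 9 and 6 in induced E2 libraries. It had 2, 7 and 4 counts in uninduced vehicle and 7, 12 and 6 in uninduced E2 libraries, for a highest level of 0.396 CPM. In edgeR without the filter its difference was 0.85 log2 with an SE of 0.61 (adjusted p = 0.463), so a change was not detectable at this depth.

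TMPRSS2 and CRISPLD2 are surface and secreted proteins. TMPRSS2, a membrane serine protease and a classic androgen target of the prostate, was at 93.4, 89.8 and 89.7 CPM in induced vehicle and at 114, 120 and 117 CPM in induced E2 libraries. The groups were apart, and TMPRSS2 rose by 0.36 log2 (SE 0.04, edgeR adjusted p = 3.86e-05). CRISPLD2, a secreted protein that glucocorticoids induce in airway muscle, was at 35.1, 36.6 and 35.5 CPM in induced vehicle and at 48.1, 51.8 and 46.3 CPM in induced E2 libraries. It rose by 0.45 log2 (SE 0.05, edgeR adjusted p = 1.08e-05), and the E2 libraries again lay above all 9 others.

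The file date did not change these directions. At the earlier date, with 1 pair, the differences were 0.82 (GLUL), 0.63 (FKBP5), 0.45 (CRISPLD2), 0.28 (TMPRSS2), -0.45 (CEBPD) and -0.49 (PIK3R1) log2. At the later date, with 2 pairs, they were 0.86, 0.64, 0.44, 0.39, -0.71 and -0.38 log2 in the same order.

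**Figure D2:**
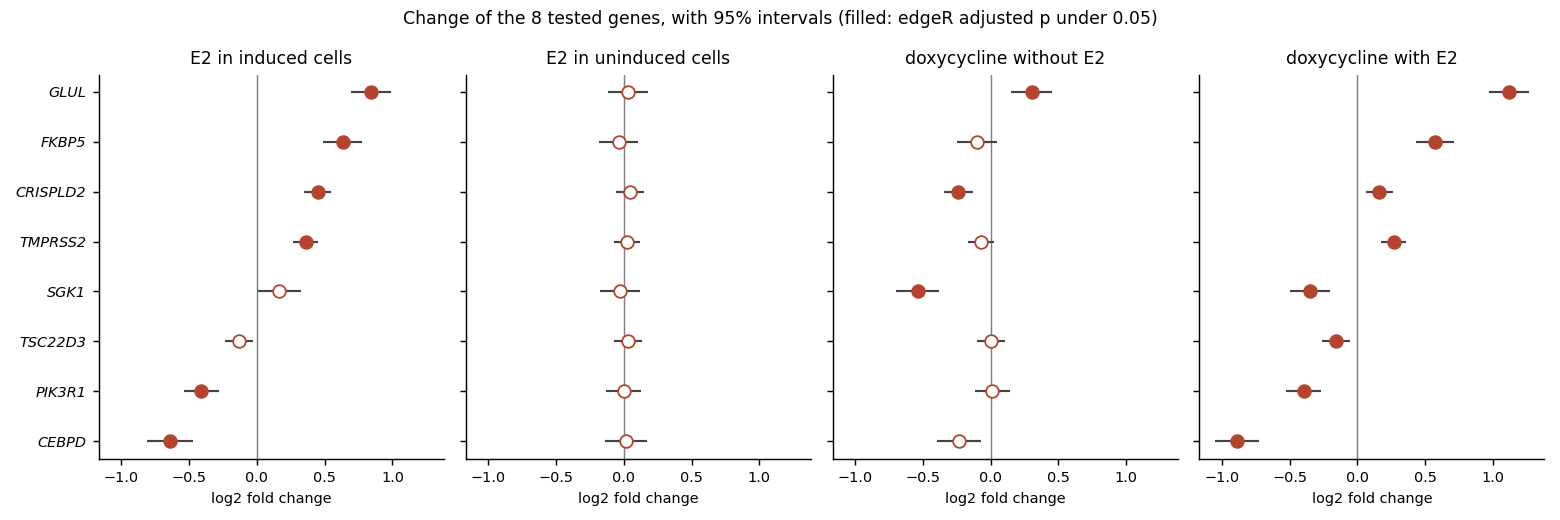
Log2 fold changes (horizontal axis) of the 8 tested genes in 4 comparisons, with 95% intervals of the edgeR fit, and filled where the adjusted p was under 0.05. With E2 in uninduced cells all 8 points lie between -0.04 and 0.05, and with E2 in induced cells they spread from -0.64 to 0.84.

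Uninduced E2 cells were next set against uninduced vehicle cells, to see what E2 does without the induced receptor. The 8 differences lay between -0.04 (FKBP5) and 0.05 log2 (CRISPLD2), and the groups overlapped for all 8 (6.44% of all tested genes did not overlap). GLUL was at 335, 405 and 394 CPM with vehicle and at 360, 407 and 395 CPM with E2, and FKBP5 at 99.9, 96.8 and 105 CPM and at 92.0, 100.4 and 101 CPM. CEBPD was at 20.2, 18.4 and 19.7 CPM and then at 21.1, 19.3 and 18.4 CPM. These ranges are almost the same with and without E2. The 95% intervals reached from -0.12 to 0.18 log2 for GLUL, from -0.18 to 0.11 for FKBP5 and from -0.14 to 0.17 for CEBPD. EdgeR called 0 of 8, with 0 at an unadjusted p under 0.05, and DESeq2, limma-voom and the fit with the block gave the same 2 counts. Of all tested genes edgeR called 0%, with 227 at an unadjusted p under 0.05 (1.56%), and DESeq2 called 1 gene.

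The difference between both E2 effects was then tested as an interaction, the E2 change in induced minus that in uninduced cells. It was called for 6 of 8 genes (background 8.47%, with 5.66% higher and 2.81% lower), the same 6 that E2 moved in induced cells. It was 0.81 log2 for GLUL (SE 0.10, edgeR adjusted p = 7.78e-05) and 0.67 log2 for FKBP5 (SE 0.10, adjusted p = 0.000354). CRISPLD2 and TMPRSS2 followed at 0.40 (SE 0.07, edgeR adjusted p = 0.00139) and 0.34 log2 (SE 0.06, adjusted p = 0.00288). CEBPD was at -0.65 (SE 0.11, edgeR adjusted p = 0.00105) and PIK3R1 at -0.41 log2 (SE 0.08, adjusted p = 0.00641). TSC22D3, at -0.16 log2, was not called (edgeR adjusted p = 0.198), but was with the block (0.0119, where 14.7% of all tested genes were called), and SGK1, at 0.19 log2, was not called (0.337). For GLUL, FKBP5, CRISPLD2, TMPRSS2, CEBPD and PIK3R1 all 3 same-numbered differences had the same sign. Without the libraries numbered 2 the adjusted p of CEBPD, TMPRSS2, PIK3R1 and CRISPLD2 was 0.0912, 0.203, 0.0718 and 0.0567 in edgeR. Without those numbered 3 it was 0.0594, 0.142, 0.133 and 0.0534, and in both cases 2 of 8 genes were called, GLUL and FKBP5.

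**Figure D3:**
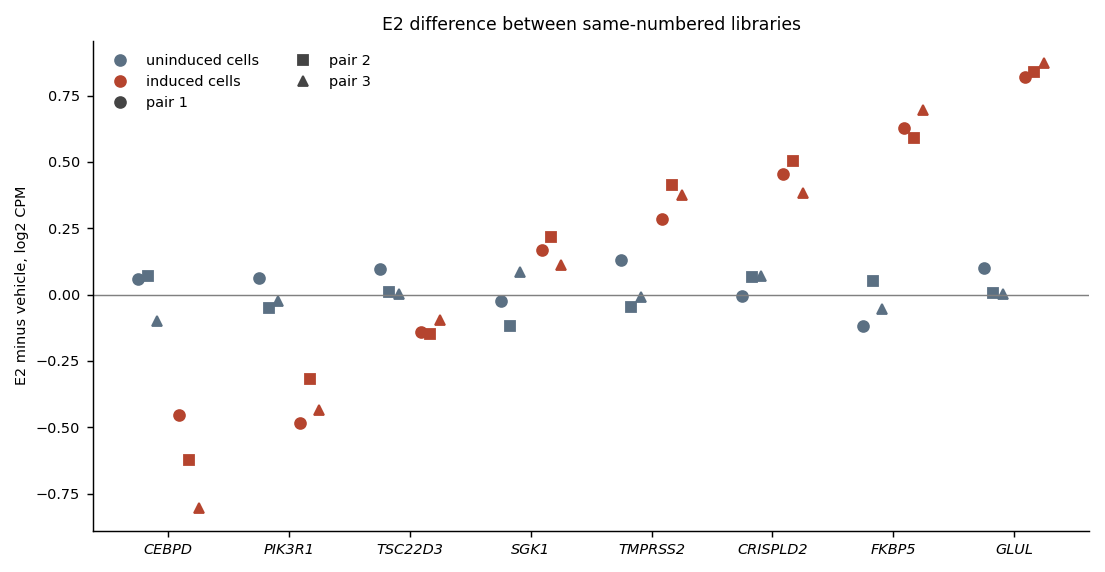
E2 minus vehicle in log2 CPM (vertical axis) for each same-numbered pair of libraries, in uninduced (blue) and induced cells (red), for the 8 tested genes. In induced cells all 3 pairs of every gene lie on 1 side of 0, and in uninduced cells the pairs lie on both sides of 0 for every gene but TSC22D3 and GLUL, whose 3 pairs are all above 0.

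Induction alone was examined in the vehicle-treated cells, induced against uninduced. SGK1 and CRISPLD2 fell and GLUL rose, so 3 of 8 genes were called (background 3.81%, with 2.44% higher and 1.37% lower). The median of the 8 was -0.09 log2, beside -0.001 for all tested genes. SGK1 was at 17.6, 18.8 and 17.5 CPM in uninduced and at 11.7, 12.01 and 13.5 CPM in induced vehicle cells. With -0.54 log2 (SE 0.07, edgeR adjusted p = 0.000494) it had the largest difference of the 8, and the groups were well apart. CRISPLD2 went from 42.7, 42.4 and 41.7 to 35.1, 36.6 and 35.5 CPM (log2 -0.24, SE 0.05, edgeR adjusted p = 0.0118). GLUL, at 335, 405 and 394 CPM in uninduced and 443, 476 and 484 CPM in induced vehicle cells, rose by 0.30 log2 (SE 0.07, edgeR adjusted p = 0.0239). CRISPLD2 was thus lower with induction and higher with E2 after it, while GLUL rose at both steps.

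CEBPD, at 20.2, 18.4 and 19.7 CPM in uninduced and 15.5, 16.5 and 17.0 CPM in induced vehicle cells, was not called (log2 -0.23, edgeR adjusted p = 0.12), but was with the block (0.0421, where 10% of all tested genes were called). FKBP5 (-0.10), TMPRSS2 (-0.07), PIK3R1 (0.01) and TSC22D3 (0.003 log2) were not called, and the 95% interval of FKBP5 was -0.25 to 0.05 log2. These calls were less secure than those for E2. In edgeR, the adjusted p of GLUL was 0.0697 without uninduced vehicle replicate 1, 0.0837 without induced vehicle replicate 2 and 0.0997 without induced vehicle replicate 3. That of CRISPLD2 was 0.0559 without uninduced vehicle replicate 2 and 0.0527 without induced vehicle replicate 3. Without all libraries numbered 2, GLUL was at an adjusted p of 0.173, CRISPLD2 at 0.126 and SGK1 at 0.102 in edgeR, and none was called.

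With E2 present in both groups, induced cells differed from uninduced cells in all 8 tested genes (background 28%, with 15% higher and 13% lower, and 37.3% in all with the block). GLUL rose by 1.12 log2 (SE 0.07), or 2.17-fold, FKBP5 by 0.57 (SE 0.07), TMPRSS2 by 0.27 (SE 0.04) and CRISPLD2 by 0.16 (SE 0.05). CEBPD fell by 0.89 log2 (SE 0.08), or 1.85-fold, PIK3R1 by 0.40 (SE 0.06), SGK1 by 0.35 (SE 0.07) and TSC22D3 by 0.16 (SE 0.05). SGK1 stood at 17.3, 17.3 and 18.6 CPM in uninduced E2 and at 13.2, 14.0 and 14.6 CPM in induced E2 libraries, so its induced libraries were lower with either treatment. CRISPLD2 (edgeR adjusted p = 0.0163) and TSC22D3 (0.0207) were the least secure. The adjusted p of CRISPLD2 in edgeR was 0.0645 under upper quartile scaling, 0.0515 without uninduced E2 replicate 1 and 0.102 without induced E2 replicate 2. That of TSC22D3 was 0.086 without uninduced E2 replicate 2 and 0.0873 without induced E2 replicate 1. Upper quartile scaling also turned the split of all calls, from 53.6% higher to 40.2% higher. This comparison shares its induced E2 libraries with the E2 comparison, so the 2 sets of values are not independent.

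The receptors that read the shared element were measured in the same libraries. NR3C1, the glucocorticoid receptor gene, was at 60.0, 57.4 and 56.4 CPM in induced vehicle and at 42.6, 38.7 and 40.8 CPM in induced E2 libraries. It fell by 0.51 log2 (SE 0.05, edgeR adjusted p = 1.07e-05), and its interaction was -0.45 log2 (SE 0.08, adjusted p = 0.00140). NR3C2, the mineralocorticoid receptor gene, fell from 7.90 ± 1.195 to 4.28 ± 0.435 CPM (log2 -0.92, SE 0.13, edgeR adjusted p = 0.000149). PGR, the progesterone receptor gene, had at most 2.23 counts in a library and was not tested. The glucocorticoid receptor gene was thus lower in the libraries in which FKBP5 and GLUL were higher.

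HSD11B2, the enzyme that inactivates cortisol, was the most changed of the 11 tested genes for receptor chaperones and ligand enzymes. It was at 20.2 ± 2.91 CPM in uninduced vehicle, 20.6 ± 3.36 in uninduced E2, 33.8 ± 3.23 in induced vehicle and 159 ± 25.8 CPM in induced E2 cells. E2 in induced cells raised it by 2.22 log2 (SE 0.12, edgeR adjusted p = 1.71e-08). HSD11B1, which regenerates cortisol, had 0 counts in all libraries. Of the 11 tested, 3 rose and 1 fell, while 16.5% of all tested genes were called, and their median was 0.04 log2. FKBP4, the co-chaperone that opposes FKBP5, rose by 0.26 log2 (SE 0.04), and H6PD, which supplies NADPH to HSD11B1, fell by 0.38 log2 (SE 0.06). BAG1, a chaperone cofactor, rose by 0.20 log2, a call that ended in edgeR without the libraries numbered 2 (adjusted p = 0.113) or 3 (0.0657).

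**Figure D4:**
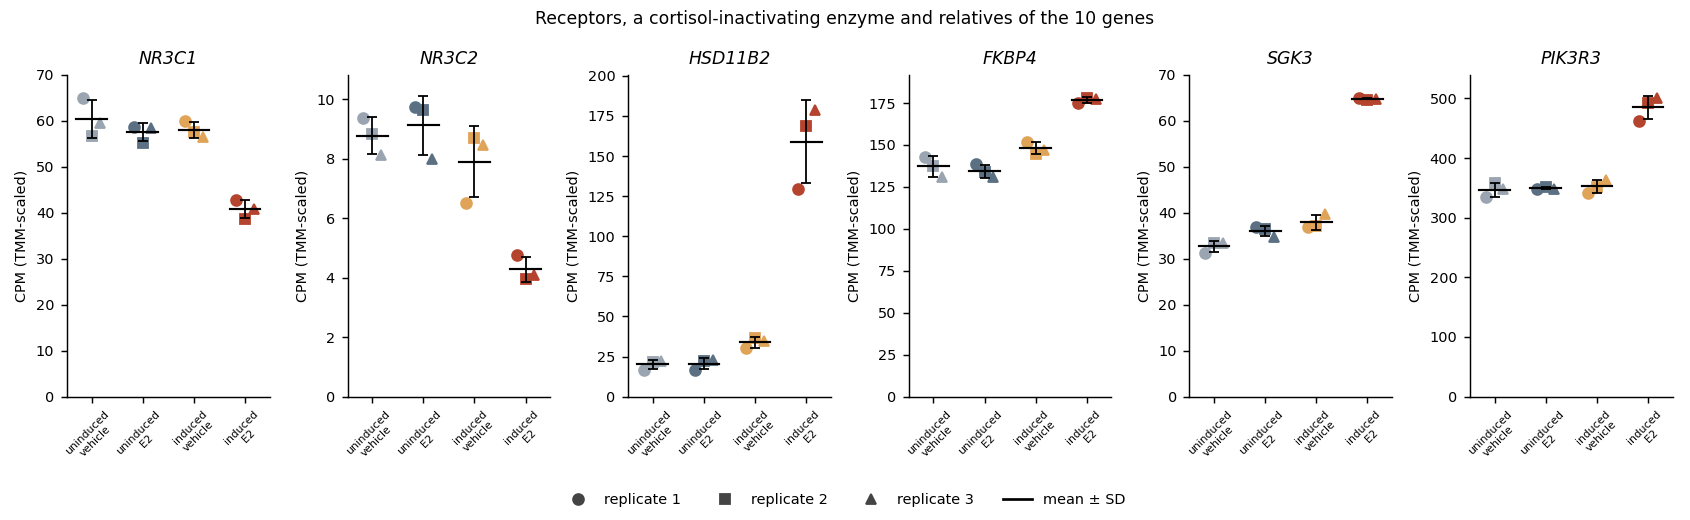
TMM-scaled CPM (vertical axes from 0, 1 scale per gene) of NR3C1, NR3C2, HSD11B2, FKBP4, SGK3 and PIK3R3 in the 4 groups, with 1 point per library and the mean ± SD of 3 libraries. In induced E2 cells both receptor genes are lowest and the other 4 genes highest.

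Other glucocorticoid response genes, 44 in the files and 38 tested, were mixed with E2 in induced cells. Among them 12 rose and 4 fell, where 9.85% of all tested genes were called higher and 6.61% lower. Their median was 0.11 log2, beside -0.005 for all tested genes. The 12 include PDK4, at a mean of 0.07 CPM in induced vehicle and 0.61 CPM in induced E2 cells. Only its induced E2 libraries had enough reads for the test, so its call rests on the group where it was high. IL1R2, at a mean of 0.40 CPM in induced vehicle and 2.30 CPM in induced E2 cells, also passed the filter only through induced E2. The 38 tested genes and their median include both PDK4 and IL1R2. IRS2, the insulin receptor substrate, rose from 42.0 ± 9.71 to 183 ± 15.5 CPM (log2 2.15), and FOXO3, a stress-responsive transcription factor, from 227 ± 15.7 to 405 ± 2.60 CPM (log2 0.84). The metallothionein MT1X, whose counts can be shared with its close relatives, rose from 112 ± 9.57 to 203 ± 15.1 CPM (log2 0.86). RGS2, which switches off G protein signals, fell from 85.7 ± 10.7 to 45.8 ± 0.338 CPM (log2 -0.91). The uninduced vehicle levels of IRS2, FOXO3, MT1X and RGS2 were 40.3 ± 6.14, 191 ± 5.45, 69.7 ± 7.65 and 105 ± 11.9 CPM. In uninduced cells 0 of 38 were called for E2 in edgeR.

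Among 21 tested androgen response genes (30 in the files) 4 rose and 4 fell (of all tested genes 9.85% and 6.61%), and the median was -0.02 log2. PMEPA1, an inhibitor of TGF-beta signalling, rose by 0.92 log2 (SE 0.04), and STEAP4, a metalloreductase, fell by 1.02 log2 (SE 0.08), from 234 ± 24.2 to 115 ± 9.82 CPM. The stress-responsive NDRG1 rose by 1.05 log2 (SE 0.19), and without the libraries numbered 2 it was at 1.02 log2 but not called (edgeR adjusted p = 0.0542). It went from 14.2 ± 4.12 CPM in induced vehicle to 30.2 ± 7.38 CPM in induced E2 cells. In uninduced vehicle and E2 cells it was at 28.8 ± 1.82 and 28.0 ± 3.34 CPM, so the rise brought it near the uninduced level. NDRG1 is counted again in the PI3K and AKT list and in the lipid and hypoxia list. The list had 2 called genes when replicate 2 of every group was left out, and 3 when replicate 3 was.

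Close relatives of the 10 genes were counted next, and differences between a gene and its relative were not tested. Of 33 tested relatives 8 rose and 0 fell (of all tested genes 9.85% and 6.61%), and the median was 0.03 log2. Leaving out replicate 2 of every group left 5 called, and leaving out replicate 3 left 4. SGK3, the relative of SGK1, was at 36.8, 37.1 and 39.8 CPM in induced vehicle and 64.9, 64.6 and 64.8 CPM in induced E2 libraries (log2 0.77, SE 0.04, edgeR adjusted p = 2.19e-08). The ratio of SGK3 to SGK1 transcripts, from TPM, was 1.03 ± 0.0393 in uninduced vehicle, 1.16 ± 0.0855 in uninduced E2, 1.72 ± 0.0482 in induced vehicle and 2.63 ± 0.143 in induced E2 cells (SD, n = 3). PIK3R3, the p55γ relative of PIK3R1, rose by 0.46 log2 (SE 0.04, edgeR adjusted p = 7.93e-07) where PIK3R1 fell. Its ratio to PIK3R1 was 3.30 ± 0.193, 3.32 ± 0.243 and 3.34 ± 0.340 in the first 3 groups and 6.27 ± 0.461 in induced E2 cells.

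CEBPB, the relative of CEBPD, was named after its values were seen. It was at 89.3 ± 6.07 CPM in induced vehicle and 106 ± 4.13 CPM in induced E2 cells (log2 0.24, SE 0.05, edgeR adjusted p = 0.00437), and its ratio to CEBPD went from 3.63 ± 0.113 to 6.70 ± 0.611. FKBP5 and FKBP4 both rose, and their ratio was 0.621 ± 0.0663 in induced vehicle and 0.808 ± 0.0606 in induced E2 cells. TMPRSS3, the relative of TMPRSS2, rose by 0.43 log2 (SE 0.06). It was at 69.5 ± 4.65 CPM in uninduced vehicle and 93.4 ± 5.02 CPM in induced vehicle cells, so it was also higher with induction.

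**Figure D5:**
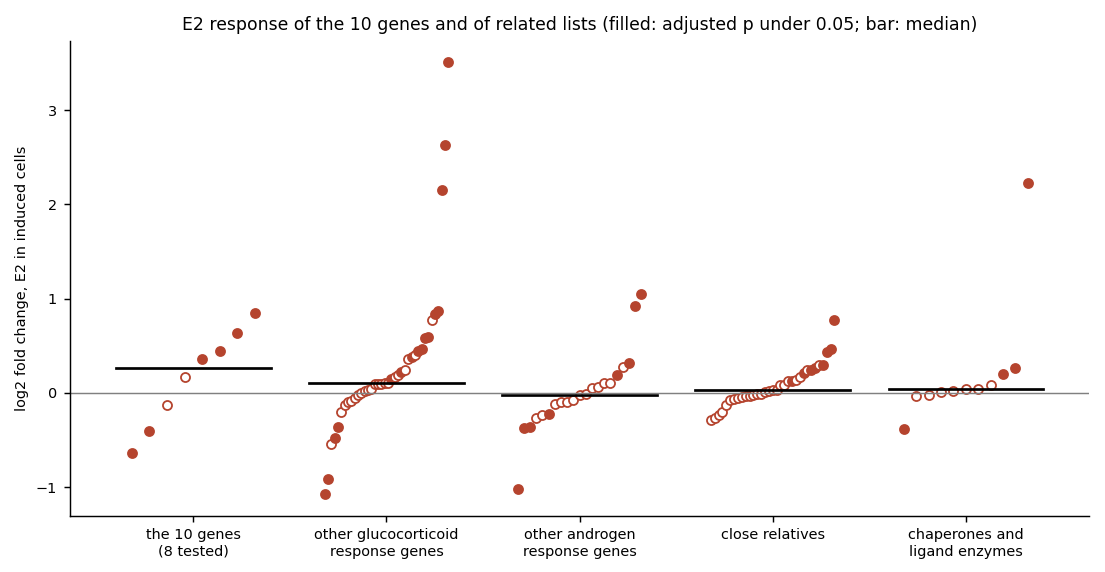
Log2 fold change for E2 in induced cells (vertical axis) of each tested gene in 5 lists, with filled points at an edgeR adjusted p under 0.05 and a bar at each median. The 8 tested genes have a median of 0.26, and the medians of the other 4 lists lie between -0.02 and 0.11.

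For each of the 6 genes called, the genes with the most similar profile were found among 12368 candidates. Likeness was the root mean square (RMS) difference of centred log2 CPM over 12 libraries, a description with no test. SLC37A3 (0.054) and B3GNT2 (0.064 log2) were nearest to FKBP5, whose own RMS spread was 0.27 log2. KAZN (0.058) and the adhesion gene CDH1 (0.062 log2) were nearest to GLUL, with a spread of 0.47 log2. CDH1 is also one of the epithelial markers, and it went from 176 ± 2.24 to 331 ± 13.002 CPM with E2 in induced cells. CDC34 (0.039) and TBC1D20 (0.046 log2) were nearest to TMPRSS2, and CMTM7 (0.068 log2) was nearest to CRISPLD2. RIN1 (0.051) and SGMS1 (0.071 log2) were nearest to CEBPD, and KLF8 (0.055) and GRAMD3 (0.056 log2) to PIK3R1.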

How the data were processed

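RNA was extracted with a Qiagen RNeasy Plus kit, and TruSeq Sample Preparation V2 gave the libraries, as the labels' protocols state. The authors deposited RSEM expected counts per gene and, beside them, the fraction of all transcripts that a gene makes up, with a sum of 1 per library. RSEM 1.1.16, DESeq 1.7.10 and hg19 are named in the submitters' processing notes, while for the aligner the sources used here give none. Gene coordinates are therefore given only for RefSeq promoters, in GRCh38.p14. The fraction, scaled to TPM, gave levels per length, the only scale used to compare genes.

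Expected counts were rounded, genes were kept by filterByExpr (minimum count 10, minimum total 15, 14541 genes left), and edgeR 4.0.16 in R 4.3.3 fitted a quasi-likelihood model with TMM scaling and 1 mean per group to all 12 libraries, with 8 residual degrees of freedom. Benjamini-Hochberg adjustment ran over all tested genes of a comparison, and a gene was called under 0.05. Log2 CPM used a prior count of 2. Expected counts, unlike whole reads, share reads between similar genes. The procedure was tested on simulated independent libraries without an effect of replicate number or file date, so that test does not cover such effects. The fitted biological coefficient of variation was 5.34%, or 2.90% with the replicate number as a block.

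The members, the gene lists and the tests were chosen with earlier results of these data known. Named were the 10 genes and ESR2, up to 4 called genes of each list with the smallest p for E2 in induced cells (2 where none was called), and the 2 nearest profiles of each called member among genes with a mean log2 CPM of at least 1. Some genes that this rule or the marker lists hold are not reported here. A list shows how many of its genes passed, beside the share of all tested genes.

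Same-numbered libraries of different groups deviated together from their group means (correlation 0.104 to 0.464 over 12376 genes, 18 pairs). The 36 differently numbered pairs gave -0.427 to 0.278, so the ranges overlapped. Deviations from a group mean cancel within the group, so the negative values are not separate evidence. The libraries of the earlier file date share a number and stood apart in every group. The correlations therefore cannot tell pairing by number from a shared file date. Pairing was assumed for the same-numbered differences and the replicate block, and the main fit does not use it. No label says whether the replicates were separate cultures, and the p-values speak only of the spread between these libraries, which may be technical.

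Alternatives were RLE and upper quartile scaling, DESeq2 1.42.0, limma-voom 3.58.1, no filter, a minimum count of 50, an adjusted p under 0.01, only the groups compared, the replicate block with 6 residual degrees of freedom, and leaving out each library or each replicate number.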

Additional observations from a re-analysis of the deposited data

Results flagged for a closer look

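The E2 change differed between induced and uninduced cells for 6 of the 8 tested genes by an interaction term in edgeR (8.47% of all tested genes were called), with adjusted p from 7.78e-05 to 0.00641 and 3 of 3 same-numbered pairs in the direction given. GLUL differed by 0.81, FKBP5 by 0.67, CRISPLD2 by 0.40 and TMPRSS2 by 0.34 log2 toward a larger rise in induced cells. CEBPD differed by -0.65 and PIK3R1 by -0.41 log2, toward a larger fall. Without the libraries numbered 2, or without those numbered 3, only GLUL and FKBP5 of the 6 were called.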

How the results depend on the processing

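The 8 tested genes gave 40 values over 5 comparisons, recomputed under 24 alternatives (23 for the interaction, where using only the groups compared is the same fit). Of 952 recomputed values 888 kept their direction and side of the threshold, 31 lost a call, 6 gained one and 27 changed sign, and none of these 27 was called either way. For E2 in induced cells 6 or 7 of 8 genes were called in each alternative, with E2 in uninduced cells 0, and for doxycycline with E2 6 to 8. Doxycycline without E2 gave 1 call at an adjusted p under 0.01, and 0 to 3 when libraries were left out: 1 without induced vehicle replicate 3, 0 without all numbered 2 and 1 without all numbered 3. The interaction gave 2 to 6 when libraries were left out, with 2 without the libraries numbered 2 or 3. With the replicate block 7 of 8 genes were called for E2 in induced cells and 7 for the interaction, 4 for doxycycline without E2 and 8 with it, and 0 for E2 in uninduced cells. The block changed no call of the 8 other than those of TSC22D3 and CEBPD given above. Upper quartile scaling turned the sign of TSC22D3 (-0.00824) and PIK3R1 (-0.00023 log2) for doxycycline without E2 and of PIK3R1 (0.00376) for E2 in uninduced cells, and no filter gave PIK3R1 0.000588 log2 there. With libraries left out, differences for E2 in uninduced cells ran from -0.0856 to 0.000769 for FKBP5, -0.0827 to 0.0363 for SGK1, -0.0452 to 0.0821 for GLUL, -0.0331 to 0.0739 for CEBPD, -0.0302 to 0.0632 for TMPRSS2 and -0.0598 to 0.0310 log2 for PIK3R1. For doxycycline without E2 they ran from -0.0283 to 0.0387 for TSC22D3 and from -0.0464 to 0.0502 log2 for PIK3R1. Upper quartile scaling shifted the log2 changes of all tested genes by a median of -0.0114 for doxycycline without E2. The median shift was 0.00558 for E2 in uninduced cells and -0.0248 log2 for E2 in induced cells. The cause of the changed signs and calls was not tested, beyond the fewer libraries of the fits that leave some out. Depth limits ANGPTL4 and ZBTB16, whose levels were near or under the floor of 3 counts.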

Other observations

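Genes of the pathways around PIK3R1 and SGK1 were counted for E2 in induced cells, where 16.5% of all tested genes were called by edgeR. Of 25 PI3K and AKT pathway genes 4 rose and 1 fell, and the median was -0.005 log2. The 4 were FOXO3, IRS2, NDRG1 and IRS1, an insulin receptor substrate that went from 50.5 ± 3.32 to 109 ± 8.36 CPM (SE of the log2 change 0.10), and IRS1 was at 44.97 ± 8.01 and 44.0 ± 5.07 CPM in uninduced vehicle and E2 cells. With the replicate block 7 rose and 2 fell, where 23.8% of all tested genes were called. Leaving out replicate 1 of every group gave 10 calls, and leaving out replicate 2 gave 3.

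Around GLUL, 4 of 20 genes of glutamine and glutamate metabolism rose and 3 fell (of all tested genes 9.85% and 6.61%), and the median was -0.01 log2. The neutral amino acid carriers SLC7A5 (log2 1.16, SE 0.12, from 730 ± 111 to 1633 ± 200.2 CPM) and SLC1A5 (log2 0.46, SE 0.03), which import large neutral amino acids and glutamine, rose. CAD, which uses glutamine for pyrimidine synthesis, fell by 0.24 log2 (SE 0.04), and the glutamate carrier SLC1A3 fell by 0.47 log2 (SE 0.08). SLC7A5, SLC1A5 and SLC1A3 were at 505 ± 60.8, 673 ± 15.6 and 291 ± 38.2 CPM in uninduced vehicle cells. SLC1A5 and SLC1A3 were at 716 ± 14.3 and 201 ± 6.48 CPM in induced vehicle cells. Each of these carriers thus already differed in the same direction at induction. Without the libraries numbered 3 the list had 4 calls.

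Around ANGPTL4, which was itself near 0, 6 of 15 tested lipid and hypoxia genes rose and 1 fell (of all tested genes 9.85% and 6.61%), and the median was 0.13 log2. Leaving out replicate 2 of every group left 3 calls. PPARD, a fatty acid-sensing receptor that induces ANGPTL4, rose from 65.8 ± 3.58 to 91.8 ± 2.89 CPM (log2 0.48, SE 0.05), and VEGFA rose by 0.35 log2 (SE 0.06). PDK4, which shuts pyruvate out of oxidation, is counted among the 6 as well. Its induced vehicle libraries were at no more than 0.155 CPM, each under the floor of 3 counts. Only its induced E2 libraries had enough reads for the test, and no fold is given here.

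As a reference, 6 of 8 tested estrogen response genes rose with E2 in induced cells and 0 fell (of all tested genes 9.85% and 6.61%). Their median was 0.93 log2, and the list was chosen with these results known. For doxycycline without E2, 5 of the same 8 rose and 0 fell (of all tested genes 2.44% and 1.37%), with a median of 1.02 log2. The list thus moved at induction as well, and is not particular to added E2. With E2 in induced cells, EGR3 (5.39), RAPGEFL1 (1.71), CA12 (1.01) and XBP1 (0.85 log2) had the smallest p, beside 0.84 log2 for GLUL, the largest rise of the 10 genes.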
